A study of Mus musculus with 18 samples.

Results

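The genes examined here encode the proteasome. They were taken by symbol from the table of gene counts: every symbol that starts with Psma, Psmb, Psmc, Psmd or Psme followed by a digit, without symbols that contain -ps (5 were left out). This gave 46 of 56883 rows, of which 31 encode the constitutive 26S particle. The other 15 were 3 immune catalytic subunits, 1 thymic and 1 testis subunit, the 2 subunits of the PA28 activator, 2 other activators, 3 assembly chaperones, a retrocopy of Psme2 (Psme2b), and 2 genes that share only the prefix (Psmc3ip and Psme3ip1).

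RNA was sequenced from microglia, astrocytes and neurons of the frontal cortex of mice of the line B6;D2-Tg(S100B-EGFP)1Wjt/J, so that every group, controls included, carried the S100B-EGFP transgene. The 3 treatments were vehicle, 10 mg/kg clozapine and 1 mg/kg risperidone, given intraperitoneally once a day for 14 days, from postnatal day 60 to 74, and were killed on day 75. Cortices of 5 animals made 1 pool, each treatment had 2 pools (batch 1 and batch 2), and each of the 6 pools was split by immunopanning into CD45+ microglia, Thy1+ neurons and HepaCAM+ astrocytes once endothelial cells and the oligodendrocyte lineage had been depleted, which gave 18 libraries in 9 groups of n = 2. On sex the labels differ, naming both sexes at one point and males alone at another. Within a group the replicates are separate pools, so p-values measure the spread between pools of animals, not between animals. Unless a block is named, fits of all 18 libraries had no pool term and treated the fractions of 1 pool as independent.

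The 20S core of the proteasome is a barrel of alpha and beta rings, and its proteolytic sites lie on the beta subunits Psmb5, Psmb6 and Psmb7. The 19S regulator caps the barrel: its base holds a ring of ATPases that unfold substrates, and its lid removes ubiquitin. In immune cells and under interferon the subunits Psmb8, Psmb9 and Psmb10 take the places of the constitutive catalytic subunits, and the PA28 activator of Psme1 and Psme2 opens the gate of the core. This immunoproteasome is known for making peptides for MHC class I presentation.

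Assigned counts ranged from 4.71 to 13.39 M per library, with a median of 7.44 M. The defining markers followed the labels: all 14 microglia markers in the table were higher in the microglia than in either other fraction, all 15 astrocyte markers were higher in astrocytes than in microglia (9 of 15 than in neurons), and all 15 neuron markers were higher in neurons than in the other 2 fractions by the edgeR test described below. The fractions were not pure. The summed level of the oligodendrocyte markers was 28074 to 44182 CPM (counts scaled to a common library total) in the astrocyte libraries of batch 1 and 7218 to 10993 CPM in those of batch 2. In neurons it was 16460 to 38675 and 7650 to 9267 CPM. It was 543 to 2843 CPM in microglia. Microglia markers summed to 1054 CPM in the second vehicle library of the neurons and to 129 to 392 CPM in the other 5 neuron libraries.

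All 46 members were detected, and all passed the filter on low counts when the 18 libraries were fitted together. Levels are CPM, scaled over the 18 libraries by the trimmed mean of M values (TMM), and levels of different genes are compared per kb of exon. The 31 constitutive members covered a wide range per kb. The lid subunit Psmd7 had the highest mean in each fraction, at 85.3 ± 20.7 CPM per kb in microglia, 105 ± 46.9 in astrocytes and 135 ± 29.0 in neurons (SD, n = 6). The ATPases Psmc5, Psmc3 and Psmc1 followed within the first 5 in every fraction. Psmd8, another lid subunit, ranked 2 in microglia, 10 in astrocytes and 12 in neurons. Psmb5 ranked 30, 15 and 20. The median over the 31 was 13.4, 13.9 and 16.3 CPM per kb in microglia, astrocytes and neurons.

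Over the 6 libraries of a fraction, their median SD of log2 CPM was 0.27 (microglia), 0.33 (astrocytes) and 0.35 (neurons), against 0.55, 0.65 and 0.64 over the 37273 genes tested. These medians were not matched for level, and genes with few counts have a larger spread. Neighbours in the order of levels often lay within 1 SD of each other, whereas the gap between Psmd7 and the next gene in microglia, Psmd8 at 55.1 ± 11.0 CPM per kb, was larger than either SD.

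Fractions were compared with edgeR's quasi-likelihood test on counts of all 18 libraries, with p-values adjusted by Benjamini-Hochberg over the 37273 genes tested and calls at an adjusted p under 0.05. Between microglia and astrocytes 6 members were called, 5 higher and 1 lower in microglia, where 13.0% of all genes were called (6.18% higher and 6.84% lower). The 31 constitutive members had a median log2 difference of -0.15 (13 of 31 positive), beside 0.02 over all genes, and only 3 of them were called. Against neurons, microglia differed in 21 members, 8 higher and 13 lower, where 47.1% of all genes were called (28.3% higher and 18.8% lower). Here the constitutive median was -0.35 (9 of 31 positive) beside 0.62 over all genes. Between astrocytes and neurons 7 members were called, 3 higher and 4 lower in astrocytes, where 23.7% of all genes were called (14.6% higher and 9.17% lower), and the constitutive median was -0.28 (3 of 31 positive) beside 0.46. The share of members called was thus near or below that of all genes in each comparison.

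**Figure D1:**
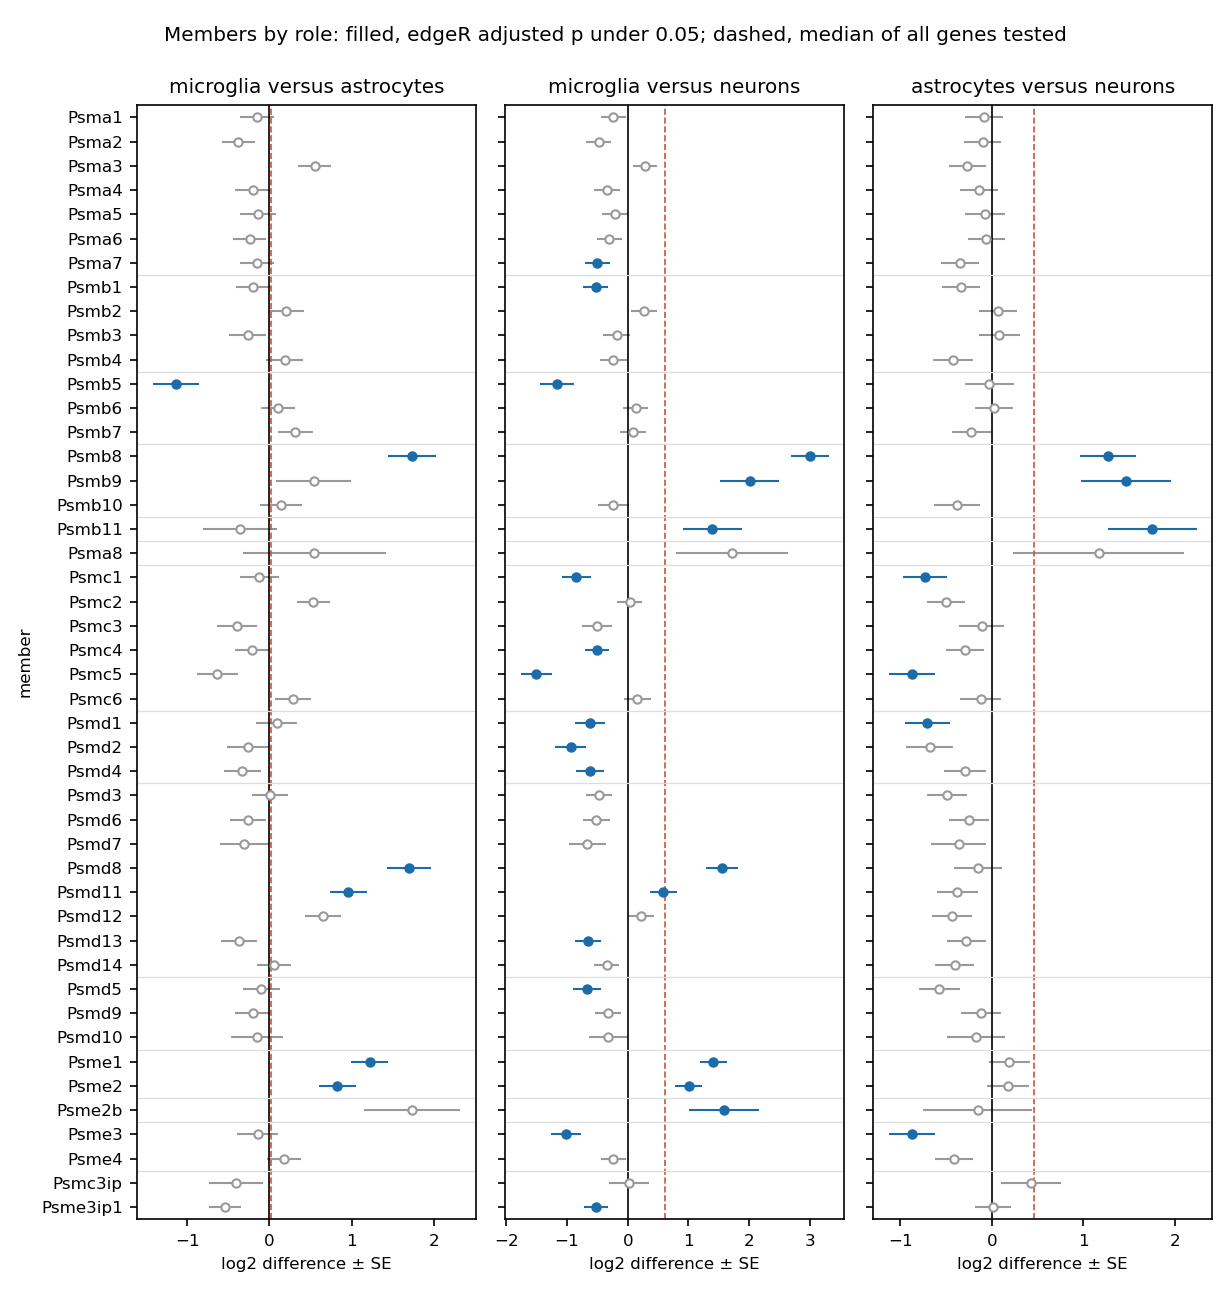
Log2 difference between fractions with its standard error for the 46 members, ordered by role, in 3 panels with 1 comparison each; filled blue points passed an edgeR adjusted p under 0.05 and the dashed line is the median of all genes tested. Psmb8 lies at 1.74, 3.00 and 1.26 in the 3 panels, while most alpha ring, beta ring and ATPase points lie within 1 log2 unit of 0.

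Psmb8, the immune subunit that takes the place of Psmb5, was the 1 member called in all 3 comparisons of fractions, and had the largest difference of all members between microglia and neurons. Its level was 14.1 to 31.8 CPM in microglia (median 17.5), 2.98 to 9.12 CPM in astrocytes (median 5.56) and 1.16 to 3.16 CPM in neurons (median 2.83). Microglia libraries lay above all others, and the 2 lower fractions overlapped slightly. The neuron values rest on 11 to 24 counts per library.

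Psmb8 was higher in microglia than in neurons by 3.00 on the log2 scale (SE 0.31, 8.00-fold, edgeR adjusted p = 3.66e-07) and than in astrocytes by 1.74 (SE 0.29, edgeR adjusted p = 0.000124), in 6 of 6 pools each time. Within batch 1 and batch 2 the mean differences were 2.99 and 2.78 against neurons, and 1.98 and 1.40 against astrocytes. Astrocytes were in turn higher than neurons by 1.26 (SE 0.30, edgeR adjusted p = 0.00766), in 6 of 6 pools, although with the libraries of batch 1 alone the edgeR adjusted p was 0.0617. The highest Psmb8 value, in the first vehicle library of the microglia, came with the highest sum of microglia markers (7378 CPM against 3538 to 5017) and of blood leukocyte and border macrophage markers (298 CPM against 47.5 to 122). The same library held the highest sum of erythrocyte markers, 2742 CPM against 265 to 1704 in the other microglia. Those markers summed to 63.4 to 125 CPM in astrocytes and 21.3 to 165 in neurons, and the 4 in the table were all higher in microglia than in either. Over the 15 blood leukocyte and border macrophage markers, 4 were higher in microglia than in astrocytes and 13 than in neurons, with sums of 19.7 to 59.2 CPM in astrocytes and 16.6 to 30.9 in neurons. Their part in the result was not tested. In these bulk libraries more cells of a type and more RNA per cell cannot be told apart.

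Psmb5, the constitutive counterpart with chymotrypsin-like activity, had its lowest median in microglia, where Psmb8 was highest. Its level was 3.95 to 8.33 CPM in microglia (median 5.86), 8.02 to 17.7 CPM in astrocytes (median 13.1) and 6.67 to 21.7 CPM in neurons (median 13.6). The microglia range touched both others at its upper end, but each pool had less Psmb5 in its microglia than in its astrocytes or neurons. Psmb5 was lower in microglia than in astrocytes, with a log2 difference of -1.14 (SE 0.28, edgeR adjusted p = 0.00585), and than in neurons, with -1.17 (SE 0.28, edgeR adjusted p = 0.00202). The mean differences within batch 1 and batch 2 were -1.40 and -0.82 against astrocytes and -0.68 and -1.44 against neurons. With 1 batch alone the call was lost against astrocytes in batch 2 (-0.78, edgeR adjusted p = 0.0811) and against neurons in batch 1 (-0.59, edgeR adjusted p = 0.133). Astrocytes and neurons differed by -0.03 (SE 0.27), a value that turns positive under another scaling (0.09).

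The stretches of 150 bases before the annotated starts of these 2 genes are printed because the pair carries the contrast between fractions. They are RefSeq sequence on GRCm38.p6, at chr17:34198045-34198194 on the plus strand for Psmb8 and chr14:54617996-54618145 on the minus strand for Psmb5, and capitals mark the motif matches found.
Psmb8: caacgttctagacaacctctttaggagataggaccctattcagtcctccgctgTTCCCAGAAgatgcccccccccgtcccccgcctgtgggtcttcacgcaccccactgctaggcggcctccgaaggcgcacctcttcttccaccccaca
Psmb5: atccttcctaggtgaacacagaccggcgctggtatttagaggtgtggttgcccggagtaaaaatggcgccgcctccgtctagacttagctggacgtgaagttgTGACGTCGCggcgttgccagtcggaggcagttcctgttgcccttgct
The match in Psmb8, TTCCCAGAA, is of the STAT site TTCNNNGAA and begins 97 bases before the start. The match in Psmb5, TGACGTCGC, is of TGACNNNGC, the core of the antioxidant response element bound by Nfe2l1 and Nfe2l2, and begins 47 bases before the start.

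These motifs are short and common. Over windows of 300 bases (250 before to 50 after the start), on both strands, TGACNNNGC was in 12.4% of 32851 RefSeq promoters and in 6 of the 39 members with a window (Psmb5, Psmb6, Psmc6, Psmd12, Psmd9 and Psme4). TTCNNNGAA, which reads the same on both strands, was in 8.30% of all windows and in 2 members, Psmb8 and Psmd2. The interferon regulatory factor site, searched as GAAA and a second GAAA with any 2 bases between, was in 3.44% and in 4 members, Psmb3, Psmd4, Psmd9 and Psme1. In Psmb6 the TGACNNNGC match ends at the annotated start, beginning 9 bases before it. A match is a description of the letters, not of binding.

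Of the other immune catalytic subunits, Psmb9 was called in 2 of the 3 comparisons of fractions and Psmb10 in none. Psmb9, which replaces Psmb6, was at 1.90 to 8.25 CPM in microglia (median 4.15), 1.12 to 5.45 in astrocytes (median 3.09) and 0.618 to 1.80 in neurons (median 0.982), the last on 5 to 15 counts per library. All 6 microglia libraries lay above all 6 neuron libraries, whereas microglia and astrocytes overlapped over most of their range. The log2 difference was 2.01 between microglia and neurons (SE 0.49, edgeR adjusted p = 0.00235) and 0.54 between microglia and astrocytes (SE 0.46, edgeR adjusted p = 0.640). The latter was 1.07 without the second risperidone library of the astrocytes and 0.27 without the first clozapine library of the microglia, and was called in neither case. Between astrocytes and neurons it was 1.47 (SE 0.49, edgeR adjusted p = 0.0348), a call that was lost with the pool as a block (1.37, edgeR adjusted p = 0.0534), within batch 1 (0.64, edgeR adjusted p = 0.743) and without any 1 of 7 libraries. These were both clozapine, the second risperidone and the second vehicle library of the astrocytes, and the second clozapine, second risperidone and first vehicle library of the neurons, with edgeR adjusted p between 0.0504 and 0.192. Psmb9 shares 212 bp of exon with Tap1 on the opposite strand, and the counts used no strand.

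Psmb10, which replaces Psmb7, did not differ by a called amount between any fractions. Its level was 6.90 to 19.0 CPM in microglia, 7.41 to 18.4 in astrocytes and 8.86 to 22.9 in neurons, with ranges that overlapped almost fully. The log2 differences were 0.14, -0.24 and -0.38 for microglia against astrocytes, microglia against neurons and astrocytes against neurons.

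Psmb6 and Psmb7, the caspase-like and trypsin-like subunits of the constitutive core, also overlapped between fractions. Psmb6 was at 13.2 to 26.3 CPM in microglia, 11.8 to 23.6 in astrocytes and 14.4 to 25.9 in neurons. Psmb7 was at 30.8 to 40.9, 22.3 to 38.0 and 24.4 to 49.5 CPM. Neither was called in any comparison of fractions, with log2 differences between -0.22 and 0.31. Psmb7 shares 405 bp with the more abundant Nek6 on the opposite strand.

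Set against its counterpart per kb of exon, Psmb8 made up 34.6 to 62.6% of the Psmb8 and Psmb5 sum in microglia, 4.43 to 20.1% in astrocytes and 1.41 to 9.79% in neurons. Microglia stood apart from both other fractions in this share. Psmb9 made up 5.32 to 13.8%, 2.99 to 10.6% and 1.36 to 5.52% of the sum with Psmb6. Psmb10 made up 31 to 49.7%, 38.8 to 49.4% and 35.9 to 59.3% of the sum with Psmb7, with ranges that overlapped in all fractions. The level of each share depends on the exon lengths used, such as 3381 bp for Psmb8 and 899 bp for Psmb5. For Psmb9 and Psmb6 they were 3660 and 1872 bp. The order of libraries within a pair does not depend on these lengths.

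**Figure D2:**
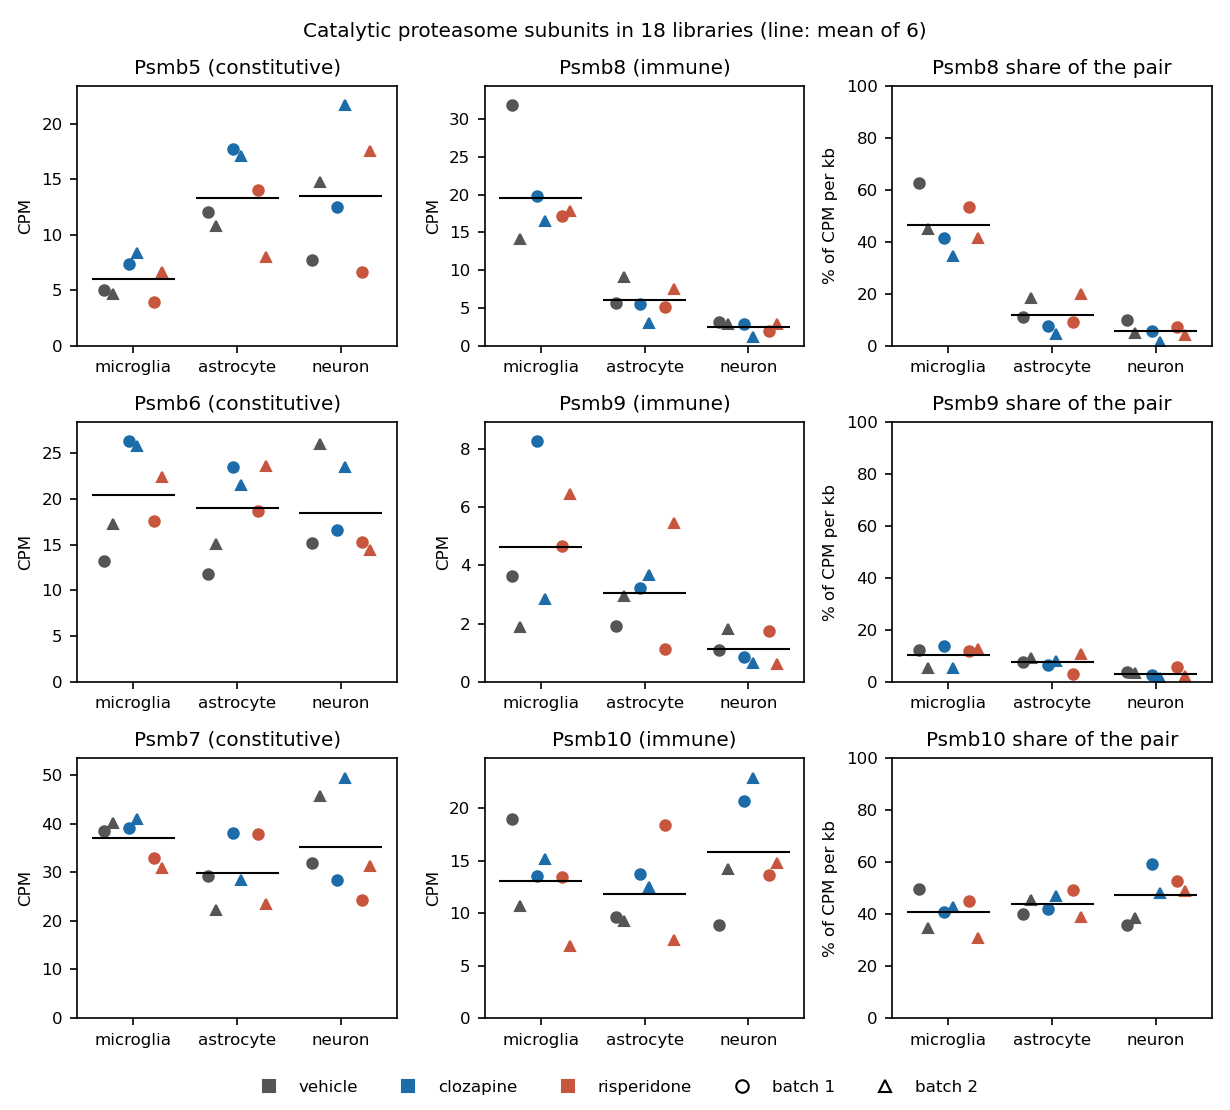
CPM of the 3 constitutive and 3 immune catalytic subunits in the 18 libraries and the immune share of each pair in % of CPM per kb, with treatment by colour, batch by symbol and a line at the mean of 6. Psmb8 is highest in microglia, where Psmb5 has its lowest median (Psmb8 share 34.6 to 62.6% in microglia and at most 20.1% elsewhere). The shares of Psmb10 overlap.

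The thymic subunit Psmb11 and the testis subunit Psma8 were low. Psmb11, known from cortical thymic epithelium, was at 2.84 to 10.7 CPM in microglia (median 5.49), 3.93 to 11.1 in astrocytes (median 7.36) and 0.106 to 7.12 in neurons (median 1.47). The 3 neuron libraries of batch 2 held 0.721, 0.106 and 1.24 CPM and those of batch 1 held 7.12, 1.71 and 4.64. Psmb11 was called higher than in neurons in astrocytes (1.75, SE 0.48, edgeR adjusted p = 0.0148) and in microglia (1.40, SE 0.48, edgeR adjusted p = 0.0226). Within batch 1 alone these differences were 0.65 and 0.69 (edgeR adjusted p = 0.658 and 0.344), and within batch 2 they were 3.82 and 3.42. Without the first clozapine library of the neurons they were 2.77 and 2.45, and without the first vehicle library of the neurons the second was 2.25. Psma8 gave 0 to 8 counts in neurons and 1 to 21 elsewhere and was not called.

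Both subunits of the PA28 activator were higher in microglia. Psme1 was at 34.3 to 59.8 CPM in microglia (median 43.5), 17.8 to 19.8 in astrocytes (median 18.8) and 8.12 to 27.9 in neurons (median 15.4). Every microglia library lay above every other library, the astrocytes lay in a narrow band, and the second vehicle library of the neurons, the one with the highest microglia marker sum, was the highest neuron value. The difference was 1.22 against astrocytes (SE 0.22, edgeR adjusted p = 0.000367) and 1.41 against neurons (SE 0.22, edgeR adjusted p = 4.6e-05). Within batch 1 and batch 2 it was 1.37 and 1.04 against astrocytes and 2.01 and 0.89 against neurons.

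Psme2, its partner, was at 14.0 to 24.0 CPM in microglia (median 17.0), 7.26 to 13.9 in astrocytes (median 10.1) and 6.67 to 12.5 in neurons (median 9.71). The microglia range lay above both others, by a narrow margin over astrocytes. Psme2 was higher than in neurons by 1.00 (SE 0.23, edgeR adjusted p = 0.00129) and than in astrocytes by 0.82 (SE 0.23, edgeR adjusted p = 0.0141). The second call was lost in batch 1 alone (0.57, edgeR adjusted p = 0.109) and without the second clozapine library of the astrocytes (edgeR adjusted p = 0.0809), their first vehicle library (0.0519) or the second risperidone library of the microglia (0.106).

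Psme2b, a retrocopy that may share reads with Psme2, was at 4.03 to 10.1 CPM in microglia and at 0 to 4.21 in the other fractions. Against neurons it was called (1.58, SE 0.58, edgeR adjusted p = 0.0294). The call was lost in batch 2 alone (1.20, edgeR adjusted p = 0.0558) and without the first clozapine library of the microglia (edgeR adjusted p = 0.0569) or the second of the neurons (0.0615). Without the second vehicle library of the neurons, the difference was 3.79.

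The nuclear activator Psme3 (PA28 gamma) had the reverse order. It was at 41.8 to 71.0 CPM in microglia (median 45.0), 32.2 to 72.7 in astrocytes (median 57.3) and 68.2 to 136 in neurons (median 101). Neurons lay at the top, with a small overlap at 68.2 CPM with both other fractions. Psme3 was lower in microglia than in neurons by a log2 difference of -1.01 (SE 0.25, edgeR adjusted p = 0.00262), within batch 1 and batch 2 by -0.81 and -1.18. Against astrocytes the neuron level differed mainly in batch 2: the astrocyte minus neuron difference was -0.87 (SE 0.25, edgeR adjusted p = 0.0178), with -0.24 within batch 1 and -1.57 within batch 2. Psme4 (PA200) was at 50.6 to 92.5, 48.8 to 73.3 and 69.5 to 93.3 CPM and was not called, with differences of 0.18, -0.24 and -0.42.

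The lid of the 19S regulator held the 2 constitutive members called higher in microglia by the edgeR test without a block. With the pool as a block, Psma3, Psmc2 and Psmd12 were also called higher than in astrocytes, as given below. Psmd8 was at 130.4 to 224 CPM in microglia (median 166), 45.0 to 58.2 in astrocytes (median 51.1) and 30.3 to 105 in neurons (median 57.1). No microglia library overlapped another fraction, and the neuron value of 105 CPM came from the second vehicle library, where the other 5 were at 30.3 to 62.2 CPM and where microglia markers were highest. The part of those markers in the Psmd8 value was not tested. The difference was 1.70 against astrocytes (SE 0.27, edgeR adjusted p = 7.31e-05) and 1.55 against neurons (SE 0.27, edgeR adjusted p = 9.82e-05). Within batch 1 and batch 2 it was 1.97 and 1.41 against astrocytes, and 2.29 and 0.96 against neurons.

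Psmd11 was at 68.0 to 98.7 CPM in microglia (median 77.1), 33.5 to 47.1 in astrocytes (median 41.1) and 33.2 to 66.6 in neurons (median 56.6). The microglia range lay above both others. Psmd11 was higher than in astrocytes by 0.96 (SE 0.22, edgeR adjusted p = 0.00333) and than in neurons by 0.59 (SE 0.22, edgeR adjusted p = 0.0324), the latter with 1.04 within batch 1 and 0.19 within batch 2. Another lid subunit, Psmd12, at 67.6 to 97.3 CPM in microglia and 37.2 to 63.5 in astrocytes, also did not overlap between these 2 fractions, but its edgeR adjusted p was 0.0513. The other lid members had microglia minus astrocyte differences between -0.37 and 0.06 and none was called. Of the 8 lid members 1, Psmd13, was lower in microglia than in neurons (-0.65, SE 0.22, edgeR adjusted p = 0.0179).

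In the base of the 19S regulator 6 of 9 subunits were lower in microglia than in neurons and none was higher by the edgeR test. Of the 37273 genes tested, 7010 were lower and 10533 higher in this comparison. Among the 6 subunits, Psmc4, Psmd1 and Psmd4 lost the call under another scaling (median-of-ratios, described below). Psmc5, an ATPase, was at 44.0 to 96.5 CPM in microglia (median 47.7), 50.5 to 118 in astrocytes (median 93.5) and 104 to 203 in neurons (median 158). All neuron libraries lay above all microglia libraries, and astrocytes bridged the gap. Psmc5 was lower in microglia than in neurons by a log2 difference of -1.51 (SE 0.25, edgeR adjusted p = 7.92e-05), with -1.42 and -1.56 within batch 1 and batch 2. Of the 6 ATPases 3 were lower in microglia than in neurons (Psmc5, Psmc1 and Psmc4), as were 3 of 3 non-ATPase base subunits (Psmd1, Psmd2 and Psmd4). Psmc1 differed by -0.85 (SE 0.24, edgeR adjusted p = 0.00729), a call lost without any 1 of 4 libraries with edgeR adjusted p between 0.0552 and 0.0621: the first clozapine or vehicle library of the microglia, or the second risperidone or vehicle library of the neurons. Psmd2, a scaffold subunit of the base, differed by -0.94 (SE 0.26, edgeR adjusted p = 0.00556), with the call lost without the second risperidone (0.0564) or second vehicle library of the neurons (0.0573). Only 1 of 7 alpha ring members (Psma7, -0.50) and 1 of 4 structural beta members (Psmb1, -0.53) were called in the same comparison, at edgeR adjusted p = 0.0497 and 0.0415.

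**Figure D3:**
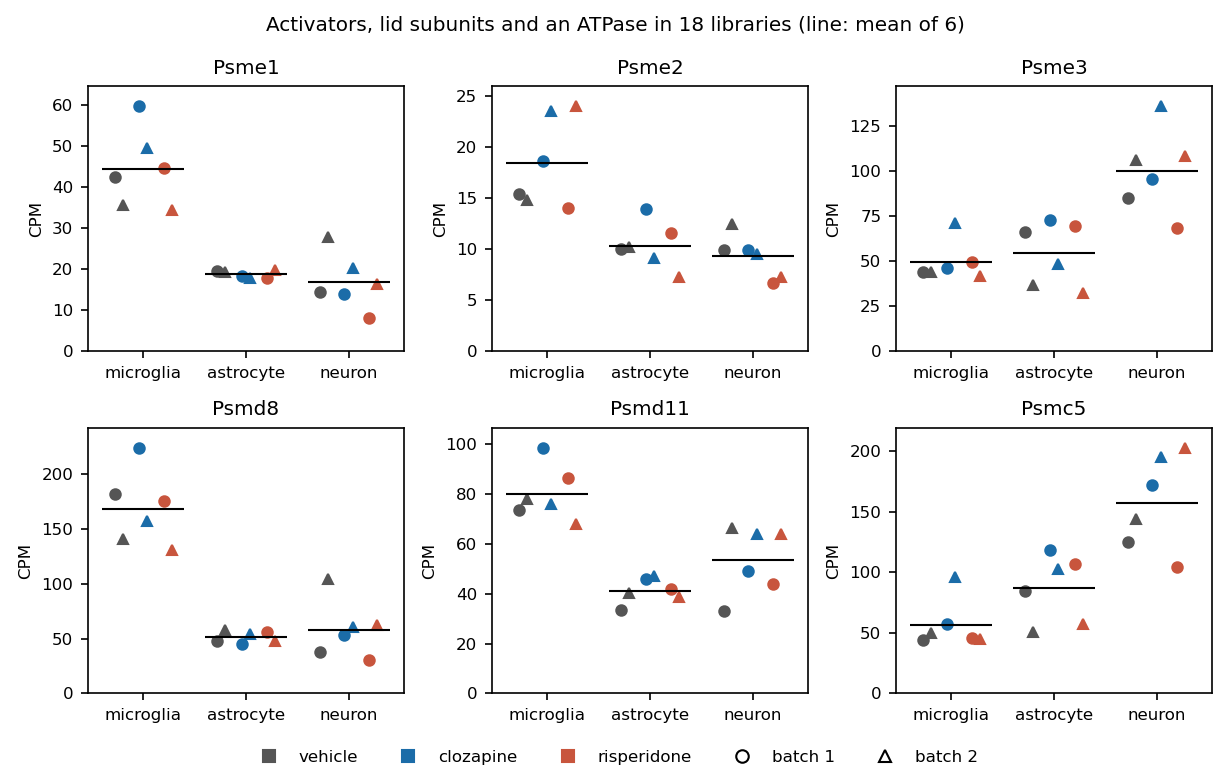
CPM of Psme1, Psme2 and Psme3 (upper row) and Psmd8, Psmd11 and Psmc5 (lower row) in the 18 libraries, with treatment by colour, batch by symbol and a line at the mean of 6. Psme1, Psme2, Psmd8 and Psmd11 lie higher in all 6 microglia libraries than in the other fractions, and Psme3 and Psmc5 are highest in neurons.

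Between astrocytes and neurons the called differences of the base depended on the batch. Psmc5, Psmc1 and Psmd1 differed by -0.88 (SE 0.25), -0.73 (SE 0.24) and -0.71 (SE 0.25), with edgeR adjusted p of 0.0175, 0.0342 and 0.0423. Within batch 1 the mean differences were -0.36, -0.21 and -0.14, and within batch 2 they were -1.41, -1.26 and -1.18. Leaving out any 1 batch 2 library of either fraction ended the calls of Psmc5 and Psme3 (edgeR adjusted p up to 0.0984 and 0.101), as did the first clozapine library of the astrocytes for Psmc5 (0.0501). The calls of Psmc1 and Psmd1 were lost without any 1 of 14 and 15 of the 18 libraries (edgeR adjusted p up to 0.172 and 0.214). The exceptions for both were the first risperidone library of the astrocytes and the first vehicle and risperidone libraries of the neurons, and for Psmc1 also the second risperidone library of the microglia. In the libraries of batch 1 alone none of the members was called (5.86% of all genes), and in those of batch 2 alone 25 were, 21 of them lower in astrocytes (53.8% of all genes). Oligodendrocyte marker sums also differed between the batches in these 2 fractions, as given above, and their part was not tested. No member had all 6 libraries of one fraction above or below all 6 of the other, where 2.57 and 4.38% of all genes did.

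The calls between fractions moved with some settings. With the pool as a block the number for microglia against astrocytes was 11 in place of 6, where 14.5% of all genes were called. It was 24 against 21 for microglia and neurons (44.1% of all genes) and 8 against 7 for astrocytes and neurons (21.6% of all genes). For microglia and astrocytes the block added Psma3, Psmc2, Psmd12 and Psme2b as higher and Psme3ip1 as lower (edgeR adjusted p = 0.0328, 0.0411, 0.0206, 0.00836 and 0.0370). Against neurons, TMM and the median-of-ratios scaling differ in their zero point, with all-gene medians of 0.62 and 0.81, and the split of called members was 8 higher and 13 lower with the first and 9 higher and 5 lower with the second. For astrocytes against neurons that shift was 0.12, and the split was 3 and 4 with the first and 3 and 3 with the second, and 5 members changed sign. For microglia against neurons the lower calls lost under the second scaling were Psma7, Psmb1, Psmc4, Psmd1, Psmd4, Psmd5, Psmd13 and Psme3ip1. All of these had log2 differences between -0.67 and -0.50. The change of scaling shifted all genes, so these losses are not to be read as particular to the members. Relative to the all-gene median of 0.62, Psmd11 at 0.59 was at the centre of all genes.

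Some members did not overlap at all between fractions. Microglia had 6 members with all libraries above all astrocyte libraries (Psmb8, Psmd8, Psmd11, Psmd12, Psme1 and Psme2), a property of 5.59% of all genes, and 1 below (Psme3ip1), a property of 3.91%. Against neurons 7 lay above (the same without Psmd12 and with Psmb9 and Psme2b; 10.2% of all genes) and Psmc5 and Psme3ip1 lay below (10.6%).

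Genes that work with the proteasome were described from 2 lists. Of 26 partners (assembly factors, shuttles, deubiquitinases and transcriptional regulators), 2 were higher and 2 lower in microglia than in astrocytes. Against neurons 2 were higher and 13 lower in microglia, and 1 higher and 10 lower in astrocytes. The partner medians were -0.16, -0.60 and -0.52 in this order. Of the 37273 genes tested, 2303 were higher and 2551 lower, 10533 and 7010, and 5434 and 3418 in the same order. The all-gene medians were 0.02, 0.62 and 0.46. The 2 transcription factors that act on proteasome genes differed in opposite directions between microglia and neurons. Nfe2l2 was at 120.3 to 307 CPM in microglia, 46.1 to 98.3 in astrocytes and 19.0 to 43.5 in neurons, with no overlap between fractions. It was higher in microglia by 1.83 against astrocytes (SE 0.29, edgeR adjusted p = 7.74e-05) and by 2.73 against neurons (SE 0.30, edgeR adjusted p = 7.92e-07). Nfe2l1, which drives constitutive subunits when proteasome activity falls, was at 72.4 to 186, 114 to 196 and 216 to 437 CPM. It was lower in microglia than in neurons by a log2 difference of -1.49 (SE 0.28, edgeR adjusted p = 0.000258). The microglia and astrocyte ranges of Nfe2l1 overlapped. Zfand5, which stimulates the 26S particle, was at 442 to 674, 73.2 to 169 and 99.0 to 267 CPM, and was higher in microglia than in astrocytes by 2.19 (SE 0.30, edgeR adjusted p = 2.05e-05).

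Of 8 antigen processing genes, 5 were higher in microglia than in astrocytes and 7 than in neurons, with none lower and medians of 0.90 and 1.88. Of the 37273 genes tested, 2303 and 10533 were higher in these comparisons, with medians of 0.02 and 0.62. B2m, the light chain of MHC class I, was at 555 to 998 CPM in microglia, 50.8 to 155 in astrocytes and 21.2 to 164 in neurons, and Tap1, a peptide transporter, differed by 0.90 (SE 0.30, edgeR adjusted p = 0.0495) and 2.09 (SE 0.32, edgeR adjusted p = 2.79e-05).

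No member was called for either drug in any fraction. Treatments were compared within each fraction by edgeR's quasi-likelihood test on its 6 libraries (32812 genes in microglia, 30990 in astrocytes and 25481 in neurons; 45 members in neurons, where Psma8 failed the filter). In each of the 9 comparisons 0 members and 0.0% of all genes were called, and DESeq2 and the fit with the batch as a block called 0 members too. With that block 0.0152, 0.0 and 0.0061% of all genes were called in microglia for clozapine against vehicle, risperidone against vehicle and clozapine against risperidone. The same shares were 0.0129, 0.0129 and 0.0484% in astrocytes and 0.00392, 0.00392 and 0.0% in neurons. At an unadjusted p under 0.05 there were 0, 0 and 1 members for clozapine against vehicle in microglia, astrocytes and neurons, 1, 0 and 0 for risperidone against vehicle, and 2, 0 and 0 for clozapine against risperidone. With 2 libraries a group the SE of a member's drug difference ran from 0.291 to 1.69 on the log2 scale, which limits what these comparisons could detect.

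Against vehicle 28 of the 31 constitutive members had a positive log2 difference with clozapine in microglia (median 0.29), 29 of 31 in astrocytes (median 0.29) and 26 of 31 in neurons (median 0.17), beside medians of -0.02, -0.04 and -0.03 over all genes. With risperidone against vehicle it was 13, 23 and 15 of 31, with medians of -0.03, 0.13 and -0.00. Clozapine against risperidone gave 29, 26 and 26 of 31 (medians 0.35, 0.10 and 0.28). The 2 drugs were each compared with the same vehicle libraries.

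Summed over the 31, the level was 1508 and 1618 CPM with vehicle in microglia, 1937 and 2088 with clozapine, and 1544 and 1362 with risperidone. In astrocytes the sums were 1629 and 1231, 1806 and 1778, and 2047 and 1183 CPM in the same order. In neurons they were 1547 and 2388, 2083 and 2610, and 1598 and 2438 CPM. Drug and vehicle libraries were paired within each fraction and batch. Each pool was split into all fractions, so pairs of the same batch came from the same pools. The pairs are therefore repeated readings of those pools, not independent replicates. The clozapine sum was above that of the vehicle library of the same batch in 6 of 6 pairs and the risperidone sum in 4 of 6. The summed level of the 15 neuron markers was also, with clozapine, above vehicle in 6 of 6 pairs, with median log2 differences of 0.48 in microglia (13 of 15 positive), 0.65 in astrocytes (15 of 15) and 0.26 in neurons (14 of 15). With risperidone they were above vehicle in 1 of 6 pairs. Astrocyte marker sums were above vehicle in 5 of 6 clozapine and 4 of 6 risperidone pairs, and those of blood leukocytes and border macrophages in 1 of 6 for each drug. Microglia, oligodendrocyte, endothelial and erythrocyte marker sums were above vehicle in 3 of 6 clozapine pairs each. The neuron marker sums spanned 1634 to 7449 CPM in microglia, 2497 to 7174 in astrocytes and 8105 to 22653 in neurons, and the part of any of these markers in the proteasome sums was not tested.

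**Figure D4:**
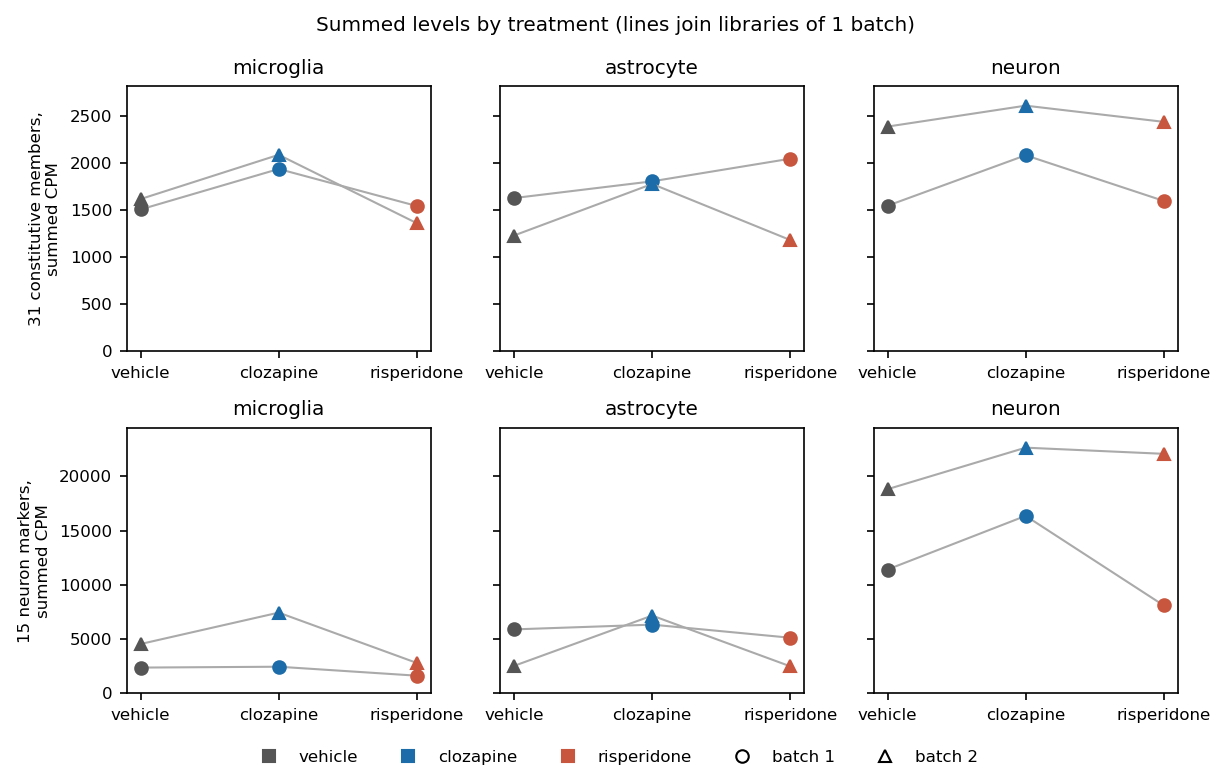
Sum of the 31 constitutive members (upper row) and of 15 neuron markers (lower row), in CPM, by treatment in each fraction, with lines joining the 3 libraries of 1 batch. Both sums lie above the vehicle value of the same batch in 6 of 6 clozapine pairs. These pairs are not independent, because each pool was split into all fractions.

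Psmb6 had the smallest p of the members for clozapine in microglia and in astrocytes. Its level was 13.2 and 17.3 CPM with vehicle, 26.3 and 25.7 with clozapine and 17.5 and 22.4 with risperidone in microglia. In astrocytes it was 11.8 and 15.0, 23.4 and 21.5, and 18.6 and 23.6 CPM. The treated libraries lay above the vehicle libraries in both fractions, yet the clozapine differences of 0.70 (SE 0.33) and 0.72 (SE 0.36) had an edgeR adjusted p of 1.0. In neurons the vehicle and clozapine values of Psmb6, 15.2 and 25.9 against 16.6 and 23.5 CPM, overlapped.

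Psmb11 was the 1 member under an unadjusted p of 0.05 for risperidone against vehicle in microglia. Its levels were 3.49 and 2.84 CPM with vehicle, 4.75 and 6.22 with clozapine and 10.7 and 10.2 with risperidone. The 2 risperidone values lay above the other 4. The difference was 1.78 against vehicle (SE 0.41, edgeR adjusted p = 0.928) and -1.04 for clozapine against risperidone (SE 0.40, edgeR adjusted p = 0.672). In neurons Psmb11 with clozapine against vehicle was -2.16 (SE 1.32), from 7.12 and 0.721 to 1.71 and 0.106 CPM.

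The other members named by smallest p had an edgeR adjusted p of 0.928 or 1.0. For clozapine in microglia the ATPases Psmc1, Psmc6 and Psmc5 and the chaperone Psmd5 were at 0.65, 0.63, 0.66 and 0.56 (SE 0.30 to 0.33). In astrocytes the alpha subunit Psma7, Psmc5 and Psmb5 were at 0.71, 0.69 and 0.58, and Psmb8 was at -0.84 (SE 0.56). In neurons Psmb10 was the only 1 under an unadjusted p of 0.05, at 0.88 (SE 0.36, edgeR adjusted p = 1.0). Its levels were 8.86 and 14.2 CPM with vehicle and 20.7 and 22.9 with clozapine. For risperidone, Psmb9 in microglia was at 1.09 (SE 0.57), Psma7 in astrocytes at 0.61 (SE 0.38), and Psme1, Psme2 and Psmd8 in neurons at -0.82, -0.70 and -0.65 (SE 0.42, 0.41 and 0.44). The value of Psma7 was 0.096 without the first risperidone library of the astrocytes and 1.01 without the second. The last 3 include the second vehicle library of the neurons, which was the highest neuron library for each of them, and without it Psme1 was at -0.33. Without the second risperidone library of the neurons Psme1 was at -1.32. The 7 immune, thymic or testis members had no common direction, with class medians for clozapine of 0.42 in microglia, -0.13 in astrocytes and -0.49 in neurons (5 of 7, 3 of 7 and 1 of 6 positive).

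**Figure D5:**
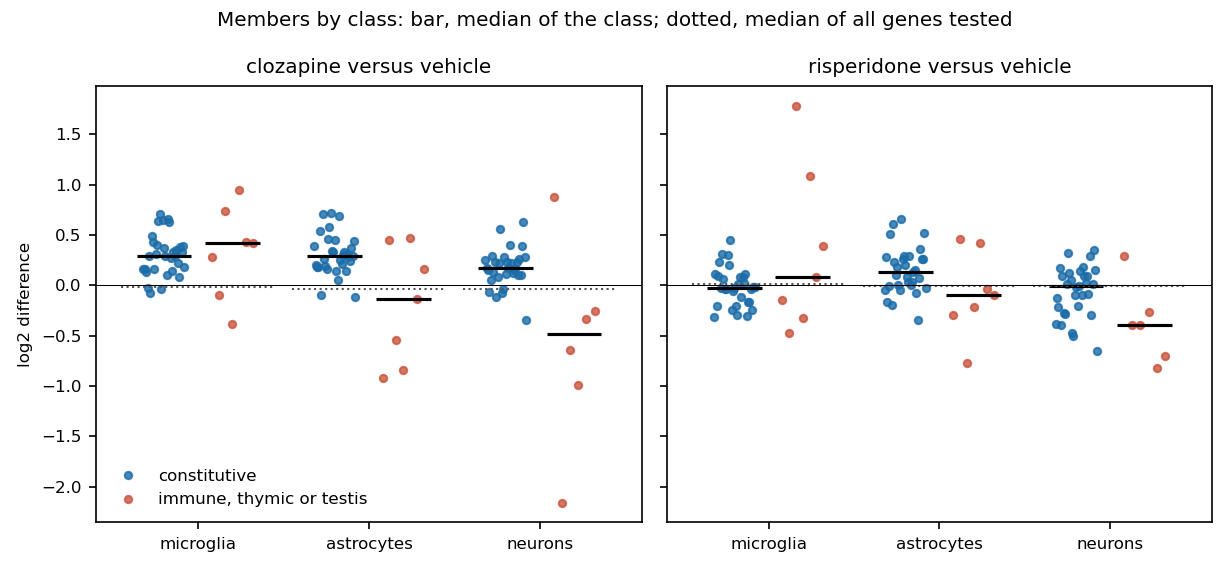
Log2 difference from vehicle for clozapine (left) and risperidone (right) in each fraction, for constitutive members (blue) and the 7 immune, thymic or testis members (red), with a bar at the class median and a dotted line at the median of all genes tested. Psma8 is missing from the neuron values, as it failed the filter there. Constitutive medians are 0.29, 0.29 and 0.17 with clozapine and -0.03, 0.13 and -0.00 with risperidone, and no member was called.

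Whether a drug difference differed between fractions was tested by an interaction over all 18 libraries. In the 6 interactions 0 members were called by edgeR and by the fit with the pool as a block, where 0.0% of all genes were called in 5 of the 6 and 0.00268% in 1. The members with the smallest p were Psmb11 for clozapine in microglia minus neurons (2.90, SE 1.20) and for risperidone in microglia minus astrocytes (2.50, SE 1.12), and Psmb6 for risperidone in astrocytes minus neurons (1.13, SE 0.51). The edgeR adjusted p was 1.0 for these 3. The first value was 5.76 without the first clozapine library of the neurons, 1.87 without the second, 0.50 without their first vehicle library and 3.70 without their second. The third value was 0.73 without the second vehicle library of the neurons and 1.58 without the first.

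Batch was compared in a fit with the 9 groups and a batch term. No member was called by edgeR, 0 had an unadjusted p under 0.05, and 0.123% of all genes were called. Across all fractions 26 of 31 constitutive members were positive for batch 2 minus batch 1, with a median of 0.05. This pooled value joined opposite signs: in astrocytes alone 3 of 31 were positive with a median of -0.26, and in neurons alone 29 of 31 with a median of 0.31, beside 0.14 and -0.10 over all genes. In microglia alone it was 21 of 31 with a median of 0.14, beside -0.05 over all genes. Over all fractions 15 of 15 neuron markers were positive (median 0.68, 1 called higher), and in the neuron libraries their sum was 8105 to 16365 CPM in batch 1 and 18824 to 22653 CPM in batch 2. Their part in these batch values was not tested. In neurons alone (0.334% of all genes called) and in microglia alone (4.25%) edgeR called 0 members, with 10 and 1 at an unadjusted p under 0.05. In astrocytes alone Psme3 was the only member called (-0.81, edgeR adjusted p = 0.0489, where 5.71% of all genes were called), at 66.1, 72.7 and 69.2 CPM in batch 1 and 36.9, 48.5 and 32.2 CPM in batch 2.

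The positions of the members on GRCm39, as the headers of the counts give them, put 10 on chromosome 11 and 6 on chromosome 14. Psmb8 (chr17:34416695-34420428, plus strand) and Psmb9 (chr17:34400961-34406738, minus strand) lie side by side with Tap1 in the MHC region. Psmb5 (chr14:54851576-54855479, minus strand) lies next to Psmb11 (chr14:54858890-54867013, plus strand), and Psme1 (chr14:55815580-55818986, plus strand) next to Psme2 (chr14:55824898-55828570, minus strand). Exon lengths ranged from 837 to 8382 bp with a median of 2814 bp. Psmb8 shares 498 bp (14.7% of its exons) with Gm20496 on the opposite strand, which held 383 counts in all libraries against 1346 for Psmb8. Psmb5 shares 109 bp (12.1%) with Mir686 on the same strand, with 422 counts against 1601.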

How the data were processed

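Per the file headers, the authors counted reads over exons by gene with featureCounts 2.0.8 on GRCm39, allowing a read in every gene it overlaps (-O) and using no strand setting. The deposited values are raw counts, in 1 combined table of 56883 symbols and 1 table per library. Per the labels' protocols, libraries were made from 20 ng RNA with rRNA removal, random hexamers and oligo-dT, and run as paired-end reads on a NextSeq. FastQC is named for read checks, per the submitters' processing notes. For the aligner, a name was not given in the sources used here. Identifiers came from a gene name table for 45 members and from equal counts for 1.

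The members and lists were chosen with earlier results of these data known. Tests used R 4.3.3, edgeR 4.0.16 with limma 3.58.1 (filterByExpr, TMM, quasi-likelihood, Benjamini-Hochberg, 0.05) and DESeq2 1.42.0. Fractions and interactions used all 18 libraries (9 residual degrees of freedom), drugs the 6 of a fraction (3). The batch fit used all 18 libraries with a batch term (8), or the 6 of a fraction (2). SE is the absolute log2 difference over the square root of F, and SDs of log2 CPM used a prior count of 2. The named members are the catalytic, thymic, testis and activator subunits, up to 5 called members per direction, and in drug comparisons 5 by smallest p. The scripts were tested on simulated data. A further gene list is not reported here.

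The labels pair the libraries: fractions of 1 pool, and batch numbers across treatments. Deviations of same-numbered libraries correlated at 0.0994 to 0.447 between treatments of a fraction (over 0.1 in 8 of 9 pairs) and at -0.389 to 0.122 between fractions (1 of 9). Alternatives were the replicate block, DESeq2, RLE (median-of-ratios) scaling, no filter, vehicle libraries only, and each library left out. Each batch alone was added after seeing the data.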

Additional observations from a re-analysis of the deposited data

How the results depend on the processing

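The number of members called between microglia and astrocytes (6) was 10 with DESeq2, 11 with the replicate block that pairs the fractions of a pool, 12 and 11 in batch 1 and batch 2 alone, and 0 with vehicle libraries only. Between microglia and neurons (21) it was 13 without the filter, 1 with vehicle libraries only and 10 to 18 with a library left out. The lowest, 10, came without the first clozapine library of the microglia. Between astrocytes and neurons (7) it was 0 and 25 in batch 1 and batch 2 alone, 0 with vehicle libraries only and 2 to 10 with a library left out. It was 2 without the second library of any 1 treatment of the astrocytes, or without the second clozapine or risperidone library of the neurons, and 10 without the first risperidone library of the astrocytes. For the batch, astrocytes alone gave 1 call. Shares of all genes called are given above for the pool block and, for astrocytes against neurons, for each batch alone. The fit of vehicle libraries only had 3 residual degrees of freedom, against 9 in the main fit. A change in the number of calls is therefore not to be read as particular to the members.

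Signs turned for values that were mostly not called. In batch 1 alone these were Psmb11 (0.034, microglia against astrocytes), Psmb10 (0.27, microglia against neurons), and Psmb5 (0.72) and Psmb7 (0.30) for astrocytes against neurons. In batch 2 alone they were Psmb9 (-0.091) and Psme3 (0.47) for microglia against astrocytes, Psmb7 (-0.020) and Psme4 (0.091) for microglia against neurons, and Psmb6 (-0.036), Psme1 (-0.10) and Psme2 (-0.067) for astrocytes against neurons. In vehicle libraries they were Psmb6 (-0.42), Psmb10 (0.36), Psmb11 (-0.26, called in the whole set) and Psme4 (0.053) for microglia against neurons, and Psmb6 (-0.69), Psme1 (-0.20) and Psme2 (-0.22) for astrocytes against neurons. Psmb5 between astrocytes and neurons was 0.091 with DESeq2, 0.091 with RLE, 0.049 without the filter and 0.048 with the replicate block. With a library left out, Psmb10 ran from -0.0034 to 0.455 and Psme3 from -0.26 to 0.13 for microglia against astrocytes, and Psmb5 from -0.17 to 0.30 and Psmb6 from -0.065 to 0.22 for astrocytes against neurons. Psmb11 with clozapine in neurons ran from -5.09 to 0.34 and Psmd8 with risperidone in neurons from -1.20 to 0.21. The causes were not tested. No drug or interaction value passed the threshold under any alternative run. A group left with 1 library is assumed to vary like the others.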
